A study of Rattus norvegicus with 10 samples.

Results

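Chad, Col2a1 and Comp code for proteins of the cartilage matrix, and Mgp codes for matrix Gla protein, an inhibitor of calcification that cartilage also makes. Their expression was followed in the shaft of the rat tibia after a single session of mechanical loading. The members were the spots that carry the RefSeq accession of each rat gene, which is NM_019164 for Chad, NM_012929 for Col2a1, NM_012834 for Comp and NM_012862 for Mgp. They are 4 of the 4803 accessions on the array, with 1 value per channel each. In LOAD rats (n = 5) the right tibia was bent and squeezed for 300 cycles at 2 Hz with a peak setting of 60 N. In SHAM rats (n = 5) opposed pads squeezed the right tibia for the same session without bending it. The untreated left tibia of each rat was its contra lateral control. All were female Wistar rats of 12 weeks, killed 6 hours after the session, and RNA came from single tibiae freed of both ends, periosteum and marrow. Each array held the treated tibia and the control tibia of 1 rat in a pair of dyes, and the treated tibia carried Cy3 on 6 arrays and Cy5 on the other 4. The comparisons ask whether bending with squeezing (LOAD), or squeezing alone (SHAM), changed expression against the rat's own control tibia.

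Cartilage owes its tensile strength to fibrils of type II collagen, the product of Col2a1. Comp, a pentameric glycoprotein, links collagen fibrils to other matrix molecules, and chondroadherin, the product of Chad, is a leucine-rich repeat protein that binds collagen and the integrins of chondrocytes. Matrix Gla protein needs vitamin K for its carboxylation and keeps cartilage and arterial walls free of mineral. In a long bone of a young rat the main cartilage is the growth plate and the joint surface at each end, and both lie outside the shaft. If pieces of growth plate remained on some shafts and not on others, the 4 genes would be high together in the same tibiae, which is the pattern examined here.

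Across the 10 arrays both channels reached a signal probability of 0.5 (the chance, as the scanner software gives it, that a spot carries signal) at 52.4 to 81.6% of spots, and 32 to 166 spots per array fell under the confidence minimum of 0.11. The precision is limited by the number of arrays. Of 15 bone matrix and osteoblast genes listed, 5 were named on the array and 4 of these, among them Spp1 and Ibsp, had signal in all 20 channels. The labels of SHAM 1 disagree: 1 field names LOAD, but the title and the channel roles in the file header mark a SHAM array, and SHAM was used. The file headers number the tibiae, and treated and control numbers follow each other on 8 arrays. On LOAD 4 they are 3 and 26 and on SHAM 4 they are 25 and 4, so the header numbers would place the control of each on the other array. Results that turn on these arrays are also given without both, or with the controls exchanged. Ratios of LOAD 2 over all genes correlated at -0.35 with those of LOAD 5, at -0.34 with SHAM 2 and at -0.14 with SHAM 4. These are the other arrays of its dye orientation. The file header of LOAD 2 gives its channels the same roles as the labels do. Results are also given with the dyes of LOAD 2 exchanged, as an alternative.

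Signal differed between the members. Mgp had a signal probability of 1 in all 20 channels. Col2a1 reached 0.5 in 16 of 20 channels and Comp in 11. Chad reached 0.5 in 2 of 20 channels, a treated tibia (0.53 in SHAM 4) and a control tibia (0.56 in SHAM 1), with a median of 0.155, so the values of Chad lie near the limit of detection. In LOAD rats Chad stayed between 0 and 0.23 in treated tibiae and between 0.04 and 0.27 in control tibiae. For Col2a1, 2 of 5 treated LOAD tibiae and 4 of 5 of their controls reached 0.5, against 5 of 5 treated SHAM tibiae and 5 of 5 of their controls. Comp reached it in 2 treated and 2 control tibiae of LOAD, and in 3 treated and 4 control tibiae of SHAM. The spot of Comp on LOAD 5 had a confidence of 0.1, under the minimum, so the ratios and levels of Comp come from 4 LOAD arrays wherever that minimum was applied.

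**Figure D1:**
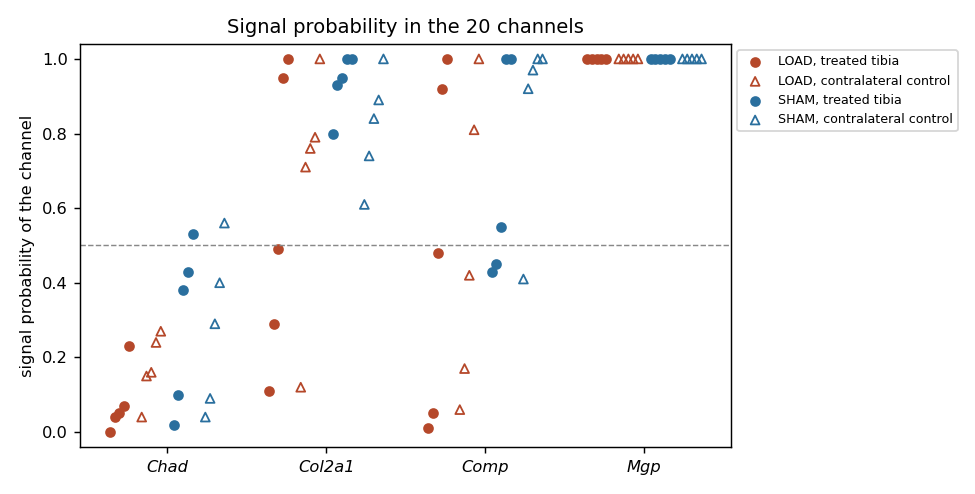
Signal probability (0 to 1) of each member in the 20 channels, with treated tibiae as filled circles and contra lateral controls as open triangles, LOAD in red and SHAM in blue; the dashed line marks 0.5. Mgp sits at 1 in every channel, while Chad passes the line in 2 channels only.

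The level per tibia was the log2 intensity of a channel after loess and Aquantile normalization, a scale on which 1 unit is a doubling and different spots are not comparable. The level of Mgp in treated LOAD tibiae 1 to 5 was 8.61, 9.44, 9.39, 9.10 and 10.28. In their contra lateral controls it was 8.30, 10.95, 8.96, 10.28 and 9.86. As labelled, the untreated tibiae of LOAD rats thus held both the lowest and the highest Mgp level of all 20, a 6.26-fold range. In treated SHAM tibiae Mgp was at 9.26, 10.28, 9.72, 9.23 and 8.96, and in their controls at 9.48, 9.36, 9.45, 9.81 and 9.39. The control levels averaged 9.67 ± 1.05 in LOAD rats and 9.50 ± 0.18 in SHAM rats (SD, n = 5 each). As labelled, the spread thus lay with the controls of LOAD, and the means were close. With the dyes of LOAD 2 exchanged, 10.95 would belong to its treated tibia and 9.44 to its control. With the controls of the arrays numbered 4 exchanged, 10.28 would be a SHAM control and 9.81 a LOAD control. Over the 10 control tibiae the SD of Mgp was 0.72, rank 286 of 4707 genes, where the median gene had 0.33.

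Col2a1, by contrast, varied little between untreated tibiae. Its level was 7.45, 7.19, 7.04, 7.05 and 7.13 in treated LOAD tibiae and 7.31, 7.74, 7.39, 6.91 and 7.59 in their controls. In treated SHAM tibiae it was 7.40, 7.73, 7.20, 7.72 and 7.17, and in their controls 7.23, 7.32, 7.31, 7.31 and 7.79. The lowest Col2a1 level of all 20 was in the control of LOAD 4 and the highest in the control of SHAM 5, a range of 1.84-fold. In the SHAM controls SHAM 5 stood apart from the other 4, which lay between 7.23 and 7.32. The SD over the control tibiae was 0.26, rank 3434 of 4707. Treated LOAD tibiae averaged 7.17 ± 0.17 and treated SHAM tibiae 7.44 ± 0.27 (SD, n = 5 each), with 3 LOAD tibiae below the lowest SHAM tibia (exact permutation p = 0.103, 2-sided). A p that misses the threshold does not show that values were alike, here or elsewhere.

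Comp had a level of 7.33, 6.80, 6.74 and 6.32 in treated tibiae of LOAD 1 to 4, against 7.33, 6.84, 6.99 and 6.40 in their controls. In SHAM it was at 7.15, 7.53, 6.65, 6.97 and 6.36 in treated tibiae and at 7.04, 7.26, 6.91, 6.81 and 6.69 in controls. Both tibiae of a rat lay close together for Comp: treated and control levels correlated over 9 rats (Pearson's r = 0.891, exact permutation p = 0.00142, adjusted over the 4 members 0.00569; Spearman's rho = 0.833, exact permutation p = 0.00827), and r was 0.784 without the 2 rats farthest from the median. The 2 tibiae of a rat share 1 array, and the part of the array in this relation was not tested. The same correlation was 0.497 for Chad, 0.265 for Mgp and -0.137 for Col2a1 over 10 rats (permutation p = 0.146, 0.465 and 0.702; adjusted p = 0.292, 0.620 and 0.702).

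Chad was at 6.27, 5.71, 5.83, 6.39 and 6.40 in treated LOAD tibiae and at 6.42, 6.50, 5.94, 6.76 and 6.46 in their controls. Each control was above the treated tibia of the same rat. In SHAM it was at 6.38, 6.57, 5.79, 6.70 and 6.09 in treated tibiae and at 6.55, 5.999, 5.76, 6.72 and 6.37 in controls, with overlap of all 4 kinds of tibia.

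**Figure D2:**
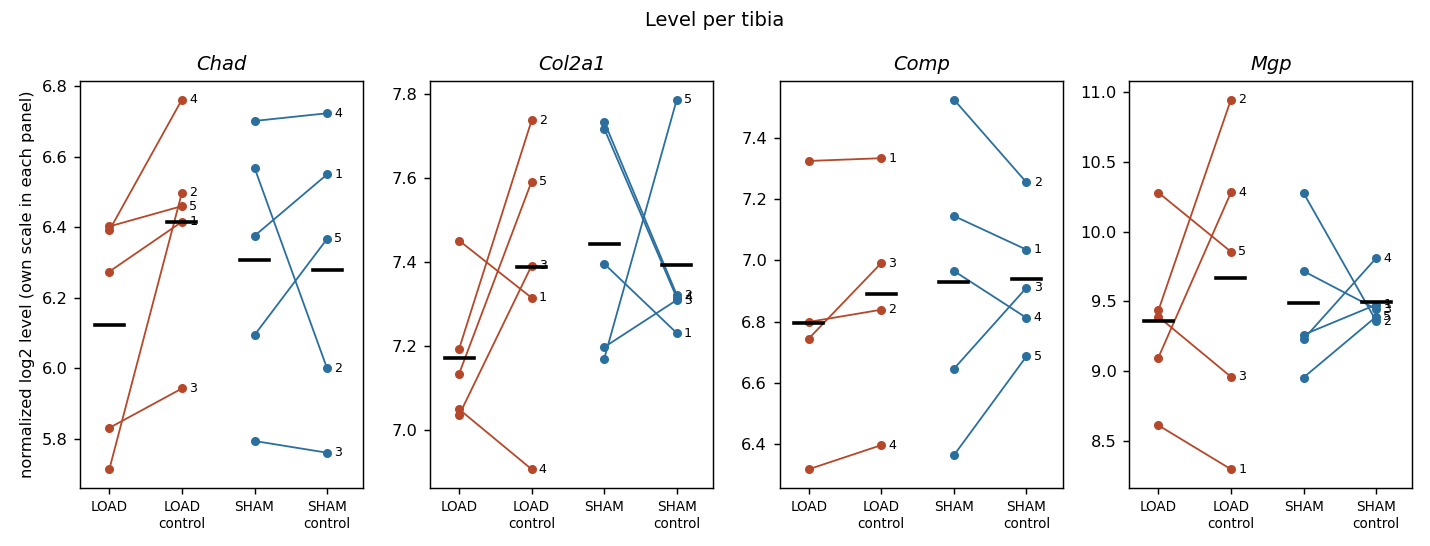
Normalized log2 level of each member in treated tibiae and contra lateral controls of LOAD (red) and SHAM (blue), 1 line per rat with its replicate number and black bars for means; each panel has its own scale. Mgp controls span 8.30 to 10.95 in LOAD and 9.36 to 9.81 in SHAM, while Chad is above the treated tibia in every LOAD control.

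The log2 ratio of the treated tibia over its control was the measure of the treatment. For Chad it was -0.14, -0.79, -0.11, -0.37 and -0.06 on LOAD 1 to 5, and -0.17, 0.57, 0.03, -0.02 and -0.27 on SHAM 1 to 5. All 5 LOAD ratios were below 0 and the groups overlapped, with LOAD 2 and LOAD 4 below every SHAM array. The mean of LOAD was -0.29 ± 0.30 (SD, n = 5) and that of SHAM 0.03 ± 0.33 (SD, n = 5).

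For Col2a1 the log2 ratio was 0.14, -0.54, -0.36, 0.14 and -0.46 in LOAD and 0.16, 0.41, -0.11, 0.40 and -0.62 in SHAM. Ratios of both signs occurred in both groups, and the lowest ratio was on SHAM 5. The means were -0.22 ± 0.33 in LOAD and 0.05 ± 0.43 in SHAM (SD, n = 5 each).

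Comp had the smallest ratios of the members. They were -0.0090, -0.04, -0.25 and -0.08 on LOAD 1 to 4 and 0.11, 0.27, -0.27, 0.15 and -0.32 on SHAM 1 to 5, so the LOAD arrays lay within the range of SHAM. The means were -0.09 ± 0.11 (SD, n = 4) in LOAD and -0.01 ± 0.27 (SD, n = 5) in SHAM.

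For Mgp the log2 ratio was 0.31, -1.51, 0.43, -1.18 and 0.42 in LOAD. Thus 3 LOAD arrays lay close together above 0 and the other 2 were far below it. In SHAM the ratio was -0.21, 0.92, 0.27, -0.58 and -0.44, and the groups overlapped. The means were -0.30 ± 0.96 in LOAD and -0.0086 ± 0.61 in SHAM (SD, n = 5 each). The SD over all 10 arrays was 0.77, rank 85 of 4707 genes, against a median of 0.24. On LOAD 2 and LOAD 4, the arrays with the low ratio, the control tibia as labelled was high (10.95 and 10.28). The treated tibia as labelled (9.44 and 9.10) lay inside the range of the other treated tibiae.

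**Figure D3:**
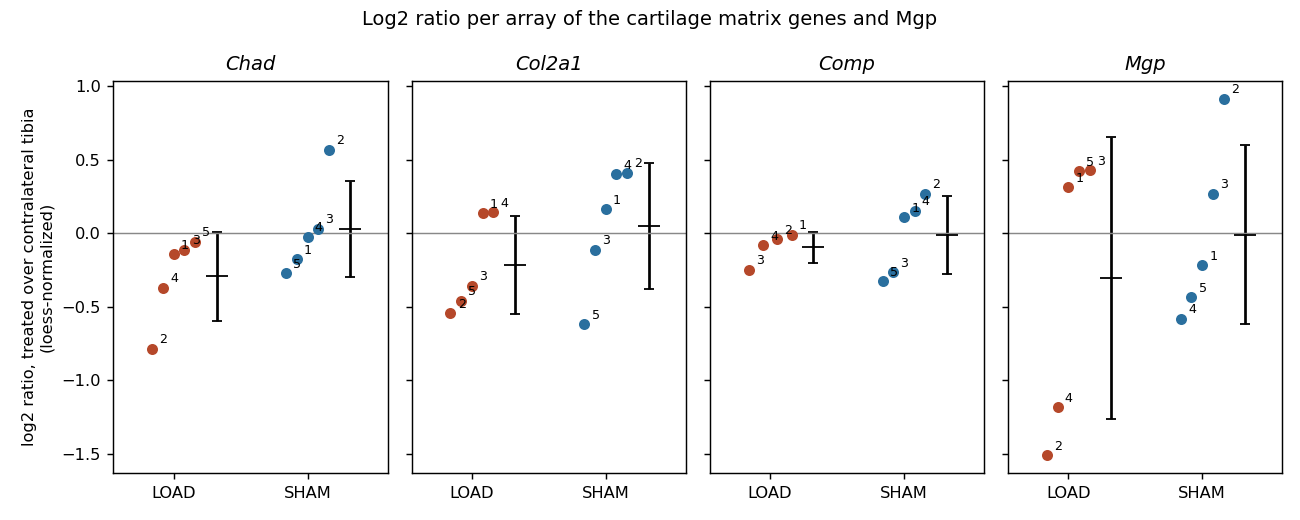
Log2 ratio of the treated over the contra lateral tibia per array for each member, LOAD left of SHAM, with replicate numbers beside the points and mean ± SD as bars to the right. Chad is below 0 on all 5 LOAD arrays, and Mgp splits in LOAD between 0.31 to 0.43 on 3 arrays and -1.51 and -1.18 on LOAD 2 and LOAD 4.

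No member passed a false discovery rate of 20% in LOAD against the contra lateral control, in SHAM against its control or in LOAD minus SHAM (0 of 4 in each; 0 of 4707 genes tested, 0% in each). In limma the LOAD mean of Chad had a standard error of 0.13, an unadjusted p of 0.0427 and an adjusted p of 1.00. Chad was the 1 member with a lower ratio in LOAD at an unadjusted p under 0.05, as were 81 of 4707 genes (1.72%). That p depended on the setting: in limma it was 0.108 with median centring, 0.0604 with 50 added to both intensities, 0.0572 with a dye term, 0.0891 with scan batch as a block and 0.109 with a replicate block, each with an adjusted p over 0.20. It was 0.196 without LOAD replicate 2, 0.0948 without LOAD replicate 4, and 0.0540 and 0.0534 without SHAM replicate 3 or 4, again far from the threshold after adjustment in limma. Over all genes, 157 had an unadjusted p under 0.05 in LOAD, 32 in SHAM and 70 in LOAD minus SHAM. The standard error of the LOAD mean was 0.15 for Col2a1, 0.11 for Comp and 0.30 for Mgp, with adjusted p = 1.00 for each in limma. Chad and Comp were below 0 on every LOAD array with a value (5 of 5 and 4 of 4), as were 88 of 4707 genes (1.87%). The members were chosen with results of these data known, so nothing is read from 2 of 4 against that share.

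The difference LOAD minus SHAM, the net value for bending, was -0.32 (standard error 0.18) for Chad, -0.27 (0.22) for Col2a1, -0.08 (0.15) for Comp and -0.30 (0.43) for Mgp. All 4 were below 0, with a median of -0.28 where the median of all genes was -0.0067. By exact permutation, 2-sided and unadjusted, p was 0.151 for Chad, 0.278 for Col2a1, 0.587 for Comp and 0.571 for Mgp, where 0.00794 is the smallest p that 5 against 5 arrays allow. None of these p-values was under 0.05. For Mgp the difference was near 0 without LOAD replicate 2 (0.0051) and above 0 with the dyes of LOAD 2 exchanged (0.31) or without both arrays numbered 2 (0.24). It was -0.08 without LOAD replicate 4 and -0.06 without SHAM replicate 2. The LOAD mean of Mgp was -0.0034 without LOAD replicate 2 and -0.09 without LOAD replicate 4. That of Chad was -0.17 without LOAD replicate 2 and 0.02 with its dyes exchanged. The difference of Chad was -0.20 without LOAD replicate 2, -0.18 without SHAM replicate 2, -0.06 without both arrays numbered 2 and -0.0060 with the dyes of LOAD 2 exchanged. The difference of Col2a1 was -0.43 without SHAM replicate 5 (unadjusted p = 0.0400 and adjusted p = 0.999 in limma), -0.18 without SHAM replicate 2 or SHAM replicate 4, -0.09 without both arrays numbered 2 and -0.05 with the dyes of LOAD 2 exchanged. With 1 array left out, that of Comp ran between -0.16 without SHAM replicate 5 and -0.01 without SHAM replicate 2. With the controls of the arrays numbered 4 exchanged, LOAD minus SHAM was -0.30 for Chad, -0.43 for Col2a1, -0.27 for Comp and -0.11 for Mgp.

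The arrays were scanned in 4 batches, of which the first held LOAD 1 and 2 with SHAM 1 and 2 and each of the others 1 array of each group. Within batches, LOAD minus SHAM of Chad was -0.66, -0.15, -0.35 and 0.22. It was -0.49, -0.24, -0.26 and 0.16 for Col2a1, and -0.95, 0.16, -0.60 and 0.86 for Mgp. Comp gave -0.22, 0.02 and -0.23 in the first 3 batches, and the last had no LOAD value. The difference was above 0 in the last batch for each member with a value there.

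Transcripts of skeletal muscle also had low ratios on LOAD arrays. Of 14 muscle genes tested, 11 had a mean ratio below 0 in LOAD and 8 of these an unadjusted p under 0.05 (1.72% of all genes tested), with a median of -0.34. In SHAM 4 of the 14 were below 0 and the median was 0.05. The mean log2 level of the 13 with a value on every array ran between 8.66 and 9.09 in treated LOAD tibiae, 8.69 and 9.95 in their controls, 8.65 and 9.41 in treated SHAM tibiae, and 8.74 and 9.09 in their controls. The treated tibia and its control hardly differed on LOAD 1 (8.90 and 8.91) and LOAD 2 (8.66 and 8.69). The low muscle ratios thus lay on the other 3 LOAD arrays. On LOAD 3 to 5 the controls were at 9.73, 9.95 and 9.23 and the treated tibiae at 9.09, 9.02 and 8.80. Those treated levels lay inside the range of treated SHAM tibiae. Mstn reached a signal probability of 0.5 in no channel, and 9 of the 13 did so in all 20. In such bulk samples fewer cells of a type and less RNA per cell cannot be told apart, and the part of muscle in the values of the members was not tested. On LOAD 2, which had the lowest Chad and Mgp ratios, the muscle transcripts Myl11 (a fast myosin light chain) and Ckm (muscle creatine kinase) had ratios of -0.09 and -0.23. On LOAD 4, where Mgp was at -1.18, they had -3.85 and -2.56, and on LOAD 3, where Mgp was at 0.43, they had -2.81 and -2.10.

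The untreated tibiae of both groups were compared by single channel analysis in limma, which asks whether the left tibiae differed between LOAD and SHAM rats. The arrays held no rats without treatment, so an effect of both treatments alike on the left side would cancel. The control tibiae of LOAD differed from those of SHAM by 0.14 (standard error 0.24) for Chad, 0.01 (0.24) for Col2a1 and 0.18 (0.51) for Mgp, with adjusted p = 0.925, 0.996 and 0.964. None of the 3 members tested passed 20%, nor did any of 4472 genes (0%), of which 234 had an unadjusted p under 0.05. Comp was left out of this fit for want of a value on LOAD 5. Its control levels averaged 6.89 ± 0.39 in LOAD (SD, n = 4) and 6.94 ± 0.22 in SHAM (SD, n = 5; exact permutation p = 0.841).

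Whether the members varied together was examined first over the log2 ratios of the 10 arrays, in 6 pairs. Chad went with Mgp (Pearson's r = 0.844, permutation p = 0.00087, adjusted over 6 pairs 0.00522). Their Spearman's rho was 0.697 (permutation p = 0.0319, adjusted 0.0955). The relation leaned on the arrays numbered 2, since r was 0.669 without LOAD 2 and SHAM 2, the arrays farthest from the median of Chad (exact permutation p = 0.0704 on the remaining 8, adjusted p = 0.211), and 0.737 without LOAD 2 alone (exact permutation p = 0.0240, adjusted p = 0.0720). It was 0.922 within LOAD and 0.880 within SHAM, on 5 arrays each and with no test. With median centring in place of loess r was 0.685 (adjusted p = 0.167), and with the dyes of LOAD 2 exchanged it was 0.847. Chad had signal in 2 of 20 channels, and in neither tibia of LOAD 2 or SHAM 2. Its signal probability was 0 (treated) and 0.16 (control) on LOAD 2, and 0.43 and 0.04 on SHAM 2. When signal was required, Chad had too few values for this pair to be tested. The r of Chad and Mgp thus cannot show that both transcripts varied together.

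Col2a1 went with Comp over 9 arrays (r = 0.793, exact permutation p = 0.0134, adjusted p = 0.0401; rho = 0.850, exact permutation p = 0.00607, adjusted p = 0.0364). Without LOAD 2 and SHAM 5, the arrays farthest from the median of Col2a1, r was 0.916. Within SHAM it was 0.925 on 5 arrays, and within LOAD 0.351 on 4. With median centring r was 0.225 (adjusted p = 0.668), so this pair depended on the normalization. It also lost its place under an adjusted p of 0.05 when any 1 of LOAD 1, LOAD 3, LOAD 4, SHAM 1, SHAM 2, SHAM 4 or SHAM 5 was left out, with r between 0.713 and 0.817 and adjusted p between 0.0590 and 0.143 by exact permutation.

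The remaining pairs did not pass. The ratios of Chad and Col2a1 had r = 0.566 (permutation p = 0.079, adjusted p = 0.158), which was 0.0712 without LOAD 2 and SHAM 2 and so rested on them. Chad with Comp had r = 0.409 (adjusted p = 0.419), Col2a1 with Mgp 0.209 (adjusted p = 0.664) and Comp with Mgp 0.119 (adjusted p = 0.755). The ratio of Mgp, the member with signal everywhere, was thus not shown to follow that of Col2a1. After the mean of each scan batch was taken out, all 6 pairs had an r between 0.726 and 0.933, on 8 or 10 arrays. By exact permutation within batches no pair passed there (adjusted p from 0.0625 to 0.135). In the 3 batches of 1 array per group the deviations of both arrays are equal and opposite by construction, so they hold only the difference between LOAD and SHAM.

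**Figure D4:**
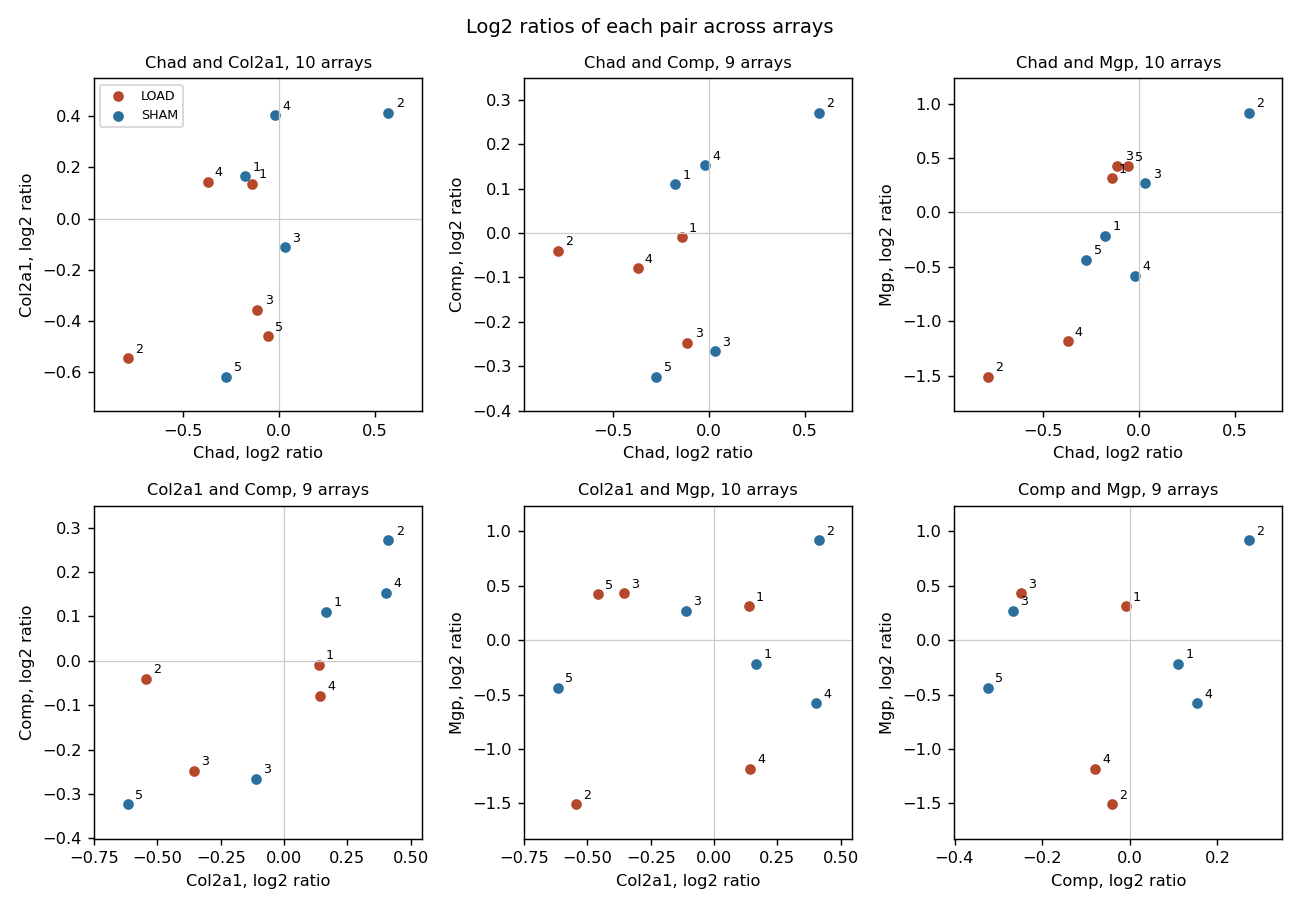
Log2 ratio of each member against each other member, 1 point per array with its replicate number, LOAD in red and SHAM in blue. Chad and Mgp (r = 0.844) and Col2a1 and Comp (r = 0.793) line up, with LOAD 2 and SHAM 2 at opposite ends for Chad and Mgp, while Comp and Mgp do not (r = 0.119). Chad had signal in 2 of 20 channels, and in neither tibia of LOAD 2 or SHAM 2.

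Over the levels of the 10 control tibiae, which had received no treatment, no pair passed. Chad with Mgp had r = 0.418 (permutation p = 0.233, adjusted p = 0.467; rho = 0.673, permutation p = 0.0387, adjusted p = 0.177). Comp with Mgp went in opposite directions, at r = -0.651 over 9 tibiae (exact permutation p = 0.0567, adjusted p = 0.340), and -0.322 without LOAD 1 and LOAD 4. Col2a1 had r = -0.144 with Chad, 0.114 with Comp and 0.142 with Mgp (adjusted p = 0.786 for each). Chad with Comp had r = -0.449 (adjusted p = 0.467). The control tibia with the highest Mgp (LOAD 2) had the second highest Col2a1 of the 10, at 7.74. That with the next highest Mgp (LOAD 4) had the lowest Col2a1, at 6.91, and the lowest Comp of those measured, at 6.40. Chad had signal in 1 of the 10 control tibiae, so these levels could hardly show all 4 genes varying together. The spot of Mgp had nearly the values of another gene's spot (given below), and which transcript it measured was not tested.

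Other genes of growth plate cartilage were few on this array. Of 24 listed, Hapln1 (link protein, which ties aggrecan to hyaluronan) and Pth1r (the receptor of parathyroid hormone and PTHrP, also made by osteoblasts) were named. Neither passed the test in any direction. Hapln1 had ratios of -0.16, 0.24, 0.18, -0.18 and 0.03 in LOAD and 0.40, 0.53, -0.09, 0.29 and -0.09 in SHAM, with LOAD minus SHAM at -0.19 (standard error 0.15). Pth1r had 0.16, -0.43, 0.06, 0.17 and -0.56 in LOAD and 0.20, 0.45, 0.42, -0.31 and -0.06 in SHAM, with a difference of -0.26 (standard error 0.19). The groups overlapped for both genes. Of 8 relations of the members with these genes the closest was that of Comp with Hapln1 (r = 0.701 over 9 arrays, exact permutation p = 0.0413, adjusted p = 0.331), which was 0.487 without SHAM 2 and SHAM 5.

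As landmarks of other tissue, Myl11 and Ckm of muscle, Mepe of osteocytes and Spp1 (osteopontin, a bone matrix protein) were set beside the members. None of the 16 relations passed. The closest were those of Mgp with Spp1 (r = 0.737, permutation p = 0.015, adjusted p = 0.157; 0.614 without LOAD 2 and LOAD 4) and of Chad with Spp1 (r = 0.720, adjusted p = 0.157; 0.186 without LOAD 2 and SHAM 2). With Myl11, r was 0.486 for Chad, 0.248 for Col2a1, 0.397 for Comp and 0.355 for Mgp. With Mepe it lay between -0.296 for Comp and 0.186 for Mgp.

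The genes whose log2 ratio was most like that of a member were taken from those with a name and a value on every array, by Pearson's r and with no test, since the points share arrays and normalization. For Mgp the closest was Rpl-1, at r = 0.999. Rpl-1 carries the accession of placental lactogen I, a hormone that the placenta makes in pregnancy. Its ratios were 0.30, -1.39, 0.43, -1.17 and 0.40 in LOAD and -0.15, 0.97, 0.30, -0.51 and -0.45 in SHAM. On each array the ratio of Mgp thus differed from that of Rpl-1 by between -0.12 and 0.02. The measured log2 intensities of both spots differed by between -0.07 and 0.22 in each of the 20 channels, and both had signal in all. The study's methods state that a share of the spotted oligonucleotides can bind a gene other than the named one. Which transcript these spots measured was not tested, and the sequences of the spots were not analysed here.

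Next to Mgp stood Atp5if1 (the inhibitor of mitochondrial ATP synthase), Fuca1 (a lysosomal fucosidase) and S100a4 (a calcium-binding protein), at r = 0.952, 0.945 and 0.943. Of these S100a4 had ratios of a like size, at 0.14, -0.95, 0.33, -0.71 and 0.73 in LOAD and -0.15, 0.56, 0.36, 0.02 and -0.26 in SHAM, and it too was low on LOAD 2 and LOAD 4. Without both arrays numbered 2 its r with Mgp was 0.902.

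**Figure D5:**
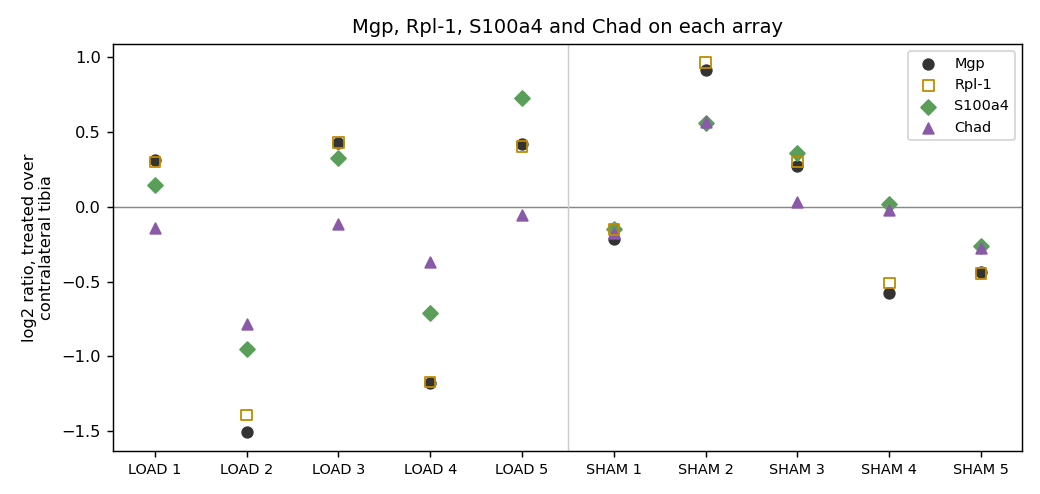
Log2 ratio of the treated over the contra lateral tibia on each array for Mgp, Rpl-1, S100a4 and Chad, LOAD arrays left of SHAM arrays. The open squares of Rpl-1 lie on the points of Mgp (r = 0.999), and all 4 genes are lowest on LOAD 2.

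Chad was most like Cyp2c7, a cytochrome P450 (r = 0.960), Ptgfrn, a membrane protein (0.938), Penk, the precursor of enkephalins (0.937), and Fh, the fumarase of the citric acid cycle (0.927). Mgp stood at rank 55 among 4471 genes in likeness to Chad, and Col2a1 at rank 721. Col2a1 was most like Lgals4, a galectin (0.906), Cntn3, a contactin (0.846), Ptgs2, the inducible cyclooxygenase (0.811), and Smad2, a transducer of TGF-beta signals (0.783). Of these Lgals4 and Ptgs2 had signal in 2 of 20 channels each. Comp was most like Sstr4, a somatostatin receptor (0.934), Cript, a protein of synapses (0.866), Pccb, a subunit of propionyl-CoA carboxylase (0.846), and Sdc4, a heparan sulfate proteoglycan of the cell surface (0.838), over 9 arrays. Pccb reached a signal probability of 0.5 in no channel. Col2a1 stood at rank 43 of 4472 genes in likeness to Comp, and Mgp at rank 1729. Neither Hapln1 nor Pth1r, the only named genes of the cartilage list, was among the closest 4 of any member. With so few candidates among the 1082 or 1083 genes compared, nothing is read from this.

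Among genes whose products act beside the members, no list had a gene past 20% in LOAD. Of the inhibitors of calcification and the vitamin K cycle, 3 other than Mgp were tested, and 2 were above 0 and 1 below in LOAD. They were Tnfrsf11b (osteoprotegerin), at 0.21 (standard error 0.12), Spp1, at 0.0089 (0.19), and Ahsg (fetuin-A), at -0.05 (0.16), which had signal in no channel. Of 7 integrins and other receptors of matrix 4 were above 0 in LOAD. Among them Cd44 was at 0.26 (standard error 0.15). Itgb1, a partner of the integrins that bind chondroadherin, was at 0.17 (0.11). Of 6 BMP and TGF-beta ligands and antagonists 3 were above 0, with Fst (follistatin) at -0.23 (0.12). Of 3 matrix proteases and inhibitors 2 were above 0, with Mmp11 at -0.16 (0.11). Biglycan (Bgn, 0.10 with a standard error of 0.26) stood for the small leucine-rich proteoglycans and fibronectin (Fn1, 0.11 with a standard error of 0.19) for other matrix of fibrous tissue. All 5 bone matrix and osteoblast genes, among them Tnfrsf11b, Spp1 and Bgn already named, were above 0 in LOAD, with a median of 0.10. In SHAM 5 of 5 were also above 0, with a median of 0.14. The median of all genes was -0.0067 in LOAD and 0.0026 in SHAM. Of 4 osteocyte genes 2 were above 0, and Mepe was at 0.86 (standard error 0.22). Both osteoclast genes, Slc4a2 and Acp5, were below 0 (-0.18, standard error 0.07, and -0.21, standard error 0.22). Of 3 erythroid and marrow genes 2 were above 0, with Cd53 at 0.29 (standard error 0.09), and of 2 endothelial genes 1, Kdr, at 0.16 (0.09). Outside the muscle list, Mepe and Cd53 (higher) and Slc4a2 (lower) were the genes of these lists with an unadjusted p under 0.05 in LOAD, where the share over all genes was 1.61% higher and 1.72% lower.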

How the data were processed

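RNA of 20 tibiae was hybridized to 10 spotted oligonucleotide arrays. The authors scanned the slides and quantified them in BlueFuse. The deposited intensity per channel is not normalized across channels or arrays, and duplicate spots are already combined into 1 value per accession, whereas the study's methods kept them apart. The study also left out spots by eye, which was not repeated. The deposited files also give a confidence and a signal probability, each a fraction. The deposited matrix of log2 ratios equals the log2 ratios of these intensities, treated over control, within 0.0005, and was used as an alternative. The genome build and spot sequences are not given in the sources used here.

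After the study's methods, a confidence below 0.11 made a spot missing. Log2 ratios were normalized by loess within arrays (span 0.3, 4 iterations) and turned to treated over control. A gene could lack a value on 1 of the 10 arrays at most, which kept 4707 genes. LOAD and SHAM means were fitted in limma 3.58.1 (R 4.3.3) using eBayes, and p-values were adjusted over all genes by the Benjamini-Hochberg method. Contra lateral controls were compared by single channel analysis on Aquantile-normalized channels of the 4472 genes that lacked no value. The level of a tibia was taken over the 4707 genes. Single values were compared by exact permutation (scipy 1.17.1), and relations by permutation with 100000 resamples, or exact enumeration under 10 arrays or within scan batches, adjusted over each family.

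The members, lists and alternatives were chosen with earlier results of these data known, and the study's own results had been read. Genes were named by this rule: the 4 members; for each, the 4 named genes most like it over the arrays; per list, up to 3 genes of the lowest p in LOAD, of which the text gives a selection; and Myl11, Ckm, Mepe and Spp1. Names came from RefSeq for 1177 accessions and from the study for 7, and 3619 stayed without a name. A list of vascular smooth muscle genes had none named on the array. The alternatives changed normalization, filters, dye, batch and replicate terms, the prior and the arrays included. The LOAD mean in limma and the single channel comparison of the controls were tested on simulated data, at the main settings only. As labelled, each array came from a separate rat, so p-values measure the spread between rats together with that between arrays.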

Additional observations from a re-analysis of the deposited data

Results flagged for a closer look

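In 24 groups of 4 or 5 values (ratio, treated level and control level of each member in LOAD and SHAM), 2 values stood far from the rest of their group by Dixon's test, a test that flags about 1 group in 20 by chance. The level of Col2a1 in the contra lateral control of SHAM 5 was 7.79, where the next of its group was 7.32. The level of Mgp in the contra lateral control of SHAM 4 was 9.81, where the next of its group was 9.48. The control of SHAM 4 is a tibia whose header number would place it on the LOAD 4 array.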

How the results depend on the processing

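No member passed 20% under any alternative that tested it. With a signal probability of 0.5 required in 1 channel, Chad and Comp had too few values to be tested in limma. Without normalization 9 genes passed in LOAD and 2 in LOAD minus SHAM. Between the controls 5 passed with a signal probability of 0.5 required in 1 channel, 17 with a replicate block and 0 to 8 with 1 replicate left out (8 without LOAD replicate 3). The cause was not tested. The replicate block changed no other call at 20%, though the unadjusted p of Chad in LOAD was then 0.109 in limma. The log2 ratios of same-numbered arrays, as deviations from group means, correlated between -0.41 and 0.07. What both tibiae of a rat share cancels in a ratio, so these values cannot decide whether the numbers pair the rats. Of 6 pairs, 2 passed over the arrays, and 0 did with median centring or with batch means removed. The count was 1 with Spearman's rho, or without both arrays numbered 2 or both numbered 4, and 1 to 2 with 1 replicate left out. With the signal probability filter the pairs of Chad, among them Chad with Mgp, were not tested. Of the pairs left, Col2a1 with Comp passed there, on 7 arrays. The cause was not tested. Without normalization, looked at after the data were seen, all 6 passed, with r from 0.733 to 0.945; there the median ratio of each array, from -1.18 to 0.80, enters every gene. With the dyes of LOAD 2 exchanged, LOAD means were 0.021 (Chad), 0.0019 (Col2a1) and 0.30 (Mgp), LOAD minus SHAM of Mgp was 0.31, control differences were -0.016 (Chad), -0.097 (Col2a1) and -0.13 (Mgp), and the r of Col2a1 and Mgp over controls was -0.258. Without both arrays numbered 2, added after the data were seen, SHAM means were -0.11 (Chad) and -0.040 (Col2a1), LOAD minus SHAM of Mgp was 0.24, control differences were -0.098 (Col2a1) and -0.18 (Mgp), and r was -0.402 (Col2a1 and Mgp), -0.288 (Comp and Mgp) and, over controls, -0.267 (Col2a1 and Mgp). Without both numbered 4, SHAM means were -0.038 (Col2a1) and 0.13 (Mgp), and r over controls was 0.380 (Chad and Col2a1) and -0.733 (Col2a1 and Comp). With the controls of these arrays exchanged, also added later, the SHAM mean of Comp was 0.072 and the r of Comp and Mgp -0.0466. Without normalization SHAM means were -0.38 (Chad) and -0.36 (Col2a1), and LOAD minus SHAM of Comp was 0.19. With median centring SHAM means were 0.020 (Comp) and 0.010 (Mgp), and r was -0.236 (Chad and Comp) and -0.297 (Comp and Mgp). A dye term gave 0.015 for Comp in SHAM. Counting SHAM 1 as LOAD gave 0.043 for Mgp in SHAM and -0.060 for the control difference of Col2a1. An offset of 50 gave -0.0031 for Chad in SHAM and -0.0023 for the control difference of Col2a1; dropping the confidence filter gave -0.0024 for that control difference, and r of -0.091 for Comp and Mgp and for Col2a1 and Comp over controls. Batch means removed gave r over controls of 0.122 (Chad and Col2a1) and -0.0873 (Col2a1 and Comp). With 1 replicate left out, SHAM means ran from -0.11 to 0.10 (Chad), -0.040 to 0.22 (Col2a1), -0.081 to 0.067 (Comp) and -0.24 to 0.13 (Mgp), LOAD minus SHAM of Mgp from -0.48 to 0.0051, control differences from -0.078 to 0.12 (Col2a1) and -0.14 to 0.52 (Mgp), r over arrays from -0.0471 to 0.563 (Chad and Comp), -0.0662 to 0.352 (Col2a1 and Mgp) and -0.288 to 0.263 (Comp and Mgp), and r over controls from -0.269 to 0.206 (Chad and Col2a1), -0.615 to 0.387 (Col2a1 and Comp) and -0.264 to 0.519 (Col2a1 and Mgp). Chad had signal in 2 of 20 channels, so its ratios are the least certain.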
